A study of Arabidopsis with 12 samples.

Results

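Cytochrome P450 and aldehyde dehydrogenase genes were followed in Arabidopsis seedlings treated with methyl jasmonate (MeJA). They were taken as the probe sets whose single gene symbol in the platform annotation was CYP with digits, a letter and digits, or ALDH with a digit, which leaves out the cyclophilins that share the letters CYP. This gave 31 genes among 22588 features tested, namely 23 P450 genes and 8 aldehyde dehydrogenase genes, each read by 1 probe set. Of the P450 genes 19 belong to the CYP71B subfamily, and the list is therefore not a sample of all plant P450 families.

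Plant P450s are heme enzymes, most of them anchored in the endoplasmic reticulum, that insert an oxygen atom into small molecules with electrons from an NADPH-dependent reductase. They build and break down hormones, phenolic compounds, and defence compounds such as camalexin and glucosinolates, and the CYP71 clan has expanded by tandem duplication in Arabidopsis. Aldehyde dehydrogenases oxidise reactive aldehydes, among them those released when membrane lipids are oxidised, to the less reactive acids. Jasmonate is a lipid-derived wound and defence hormone perceived by COI1, the F-box protein of its receptor, while EIN3 and EIL1 are transcription factors that carry out the response to ethylene.

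Whole seedlings, 7 days old and grown on MS medium under long days at 23 °C, were treated for 4 h with 100 µM MeJA or with ethanol alone (mock). The genotypes were Col-0 (wild type), the coi1-2 mutant and the ein3 eil1 double mutant, all labelled as Columbia background. The labels do not give the allele numbers of ein3 and eil1. Each of the 6 groups had 2 ATH1 arrays, 12 in all, with values given as log2 RMA levels. The design asks which jasmonate responses are altered when COI1, or EIN3 together with EIL1, is lacking.

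EIN3 itself lay between 9.26 and 9.59 on the 8 arrays of Col-0 and coi1-2 and between 5.91 and 6.25 on the 4 arrays of ein3 eil1. COI1 and EIL1 were not analysed here. Replicate arrays correlated across features at 0.9898 (ein3 eil1 MeJA) to 0.9961 (coi1-2 MeJA). Whether replicates came from separate cultures is not labelled. The p-values therefore measure only how far these samples spread, which may be technical variation, and 2 arrays per group limit the precision throughout. Of the 6 shoot markers listed to check the tissue none had a named probe set, and of the 8 root markers only the root hair expansin gene EXPA7 did. EXPA7 was lower in coi1-2 than in Col-0 under mock (−0.86 ± 0.16, log2, SE, limma adjusted p = 0.00345) and lower in ein3 eil1 than in Col-0 under MeJA (−1.03 ± 0.16, adjusted p = 0.00217), and it fell with MeJA in ein3 eil1 (−0.88 ± 0.16, adjusted p = 0.00835). Its part in the differences of the P450 and aldehyde dehydrogenase genes in those comparisons was not tested. In whole seedlings, fewer cells that express a gene and less RNA per cell cannot be told apart.

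Probe sets differ in how strongly they bind, so position on the array is given here as a guide to detection and not to compare genes. All 8 aldehyde dehydrogenase genes lay above the array medians (5.22 to 5.39) in every group. Of the 23 P450 genes 5 did so, CYP71B5, CYP71B6, CYP71B26, CYP71B28 and CYP71B34, while 14 lay below the medians in all 6 groups. Among these 14, CYP71B16, CYP71B27, CYP71B30P, CYP71B31, CYP71B36 and CYP79A2 were below the lower quartiles (3.74 to 3.87) in every group, where a signal may be background. CYP79A2, which makes phenylacetaldoxime from phenylalanine for benzylglucosinolate, ranged only from 3.48 to 3.71 over the 12 arrays. CYP71B31, an enzyme of floral terpenoid metabolism, ranged from 3.28 to 3.62. CYP71B16 (3.18 to 3.67), CYP71B27 (3.38 to 4.02), CYP71B30P (3.25 to 3.57) and CYP71B36 (3.25 to 3.58) were as low, with wider ranges for CYP71B16 and CYP71B27. The absence of a call for these genes does not show that they were unregulated. RefSeq lists CYP71B27 and CYP51G2 as transcribed pseudogenes, and the name of CYP71B30P marks it as a pseudogene although RefSeq lists it as protein coding.

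Over 9 comparisons, 10 of the 31 genes were called in at least 1 (limma, Benjamini-Hochberg adjusted p under 0.05 over all features), 8 P450 and 2 aldehyde dehydrogenase genes, and 21 in none. Over all features 23.8% were called in at least 1 of the 9.

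In Col-0, MeJA raised CYP71B37 and CYP71B6 and lowered CYP71B23 and ALDH3F1. These 4 of 31 genes (12.9%) stand against 7.62% of all features called, 4.56% higher and 3.07% lower, and the median log2 change of the 31 was −0.04 against −0.03 over all features. The other 27 lay between −0.39 and 0.52.

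In coi1-2, MeJA raised CYP71B22 and lowered ALDH3F1. That is 2 of 31 genes against 2.56% of all features (1.55% higher, 1.01% lower), with medians of −0.04 and 0. CYP71B22 did not pass without coi1-2 mock replicate 2 (adjusted p = 0.1) or coi1-2 MeJA replicate 1 (0.124), which leaves ALDH3F1 as the only called gene there.

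In ein3 eil1, MeJA raised CYP71B37 and lowered CYP71B29 and ALDH3F1, 3 of 31 genes against 4.29% of all features (1.68% higher, 2.61% lower), with medians of 0.05 and 0.01. None of these calls was firm. Without ein3 eil1 mock replicate 1, mock replicate 2 or MeJA replicate 2, limma called 0 of the 31, and without MeJA replicate 1 it called 1. With all arrays, 7 of the 31 had an unadjusted p under 0.05. The share of all features at that unadjusted threshold was not counted, so the 7 cannot be read as particular to these genes.

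**Figure D1:**
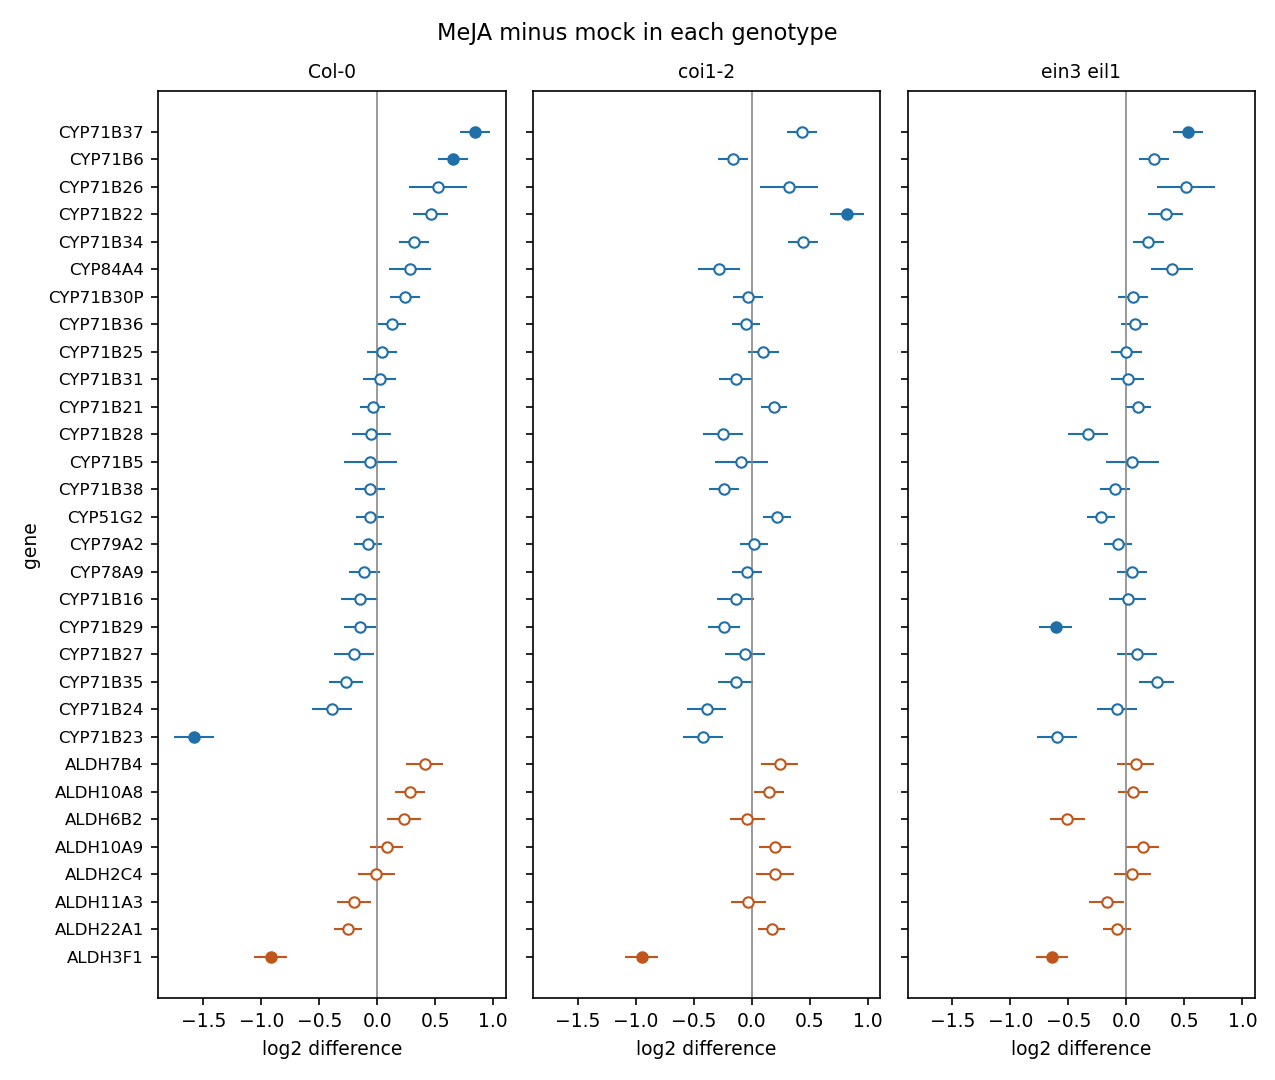
Log2 difference between MeJA and mock (x axis) for each of the 31 genes (y axis) in the 3 genotypes, with P450 genes in blue, aldehyde dehydrogenase genes in orange, bars for the SE of the limma fit and filled points for calls (adjusted p under 0.05). CYP71B23 at −1.58 in Col-0 lies furthest from 0, and ALDH3F1 is the only gene filled in all 3 panels.

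Responses of the genotypes were compared directly through the interaction of genotype with MeJA. The response of CYP71B23 was the only one called as different between coi1-2 and Col-0, which is 1 of 31 genes against 1.17% of all features (0.385% higher, 0.784% lower). Between ein3 eil1 and Col-0 limma called 0 of 31 genes against 1.81% of all features (0.425% higher, 1.39% lower). Of the 31, 5 had an unadjusted p under 0.05, again without a count over all features at that threshold. The coi1-2 count was 0 without any 1 of the 9 arrays named with CYP71B23, and 2, with CYP71B6 added, without either ein3 eil1 MeJA array. The ein3 eil1 count was 1 without Col-0 mock replicate 2.

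Genotype differences were called for about as many of these genes as MeJA responses in Col-0. Under mock, coi1-2 differed from Col-0 in 5 of 31 genes (16.1%) against 13.5% of all features (7.41% higher, 6.07% lower), with CYP71B23, CYP71B24, CYP71B29 and ALDH6B2 higher and CYP71B37 lower. Under MeJA it differed in 4 of 31, the same P450 genes in the same directions, against 7.29% of all features (4.19% higher, 3.1% lower). The ein3 eil1 seedlings differed from Col-0 under mock in 5 of 31 genes against 9.33% of all features (6.13% higher, 3.2% lower), with CYP71B6, CYP71B37 and CYP84A4 higher and CYP71B23 and ALDH3F1 lower. Under MeJA they differed in 5 of 31 against 5.48% (2.92% higher, 2.56% lower), with CYP84A4 higher and CYP71B23, CYP71B28, CYP71B29 and ALDH6B2 lower. The coi1-2 mock count was 3 without Col-0 mock replicate 1. The ein3 eil1 mock count was 3 without Col-0 mock replicate 2 or either ein3 eil1 mock array. For ein3 eil1 under MeJA, leaving out Col-0 MeJA replicate 1 gave 1 call, replicate 2 of that group gave 3, and any single coi1-2 or ein3 eil1 array gave 2. These comparisons share arrays with each other and with the MeJA responses, and the same Col-0 arrays enter both mutant differences under a treatment. Medians over the 31 genes lay between −0.08 and 0.04 in these 4 comparisons, against −0.03 to 0.01 over all features.

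**Figure D2:**
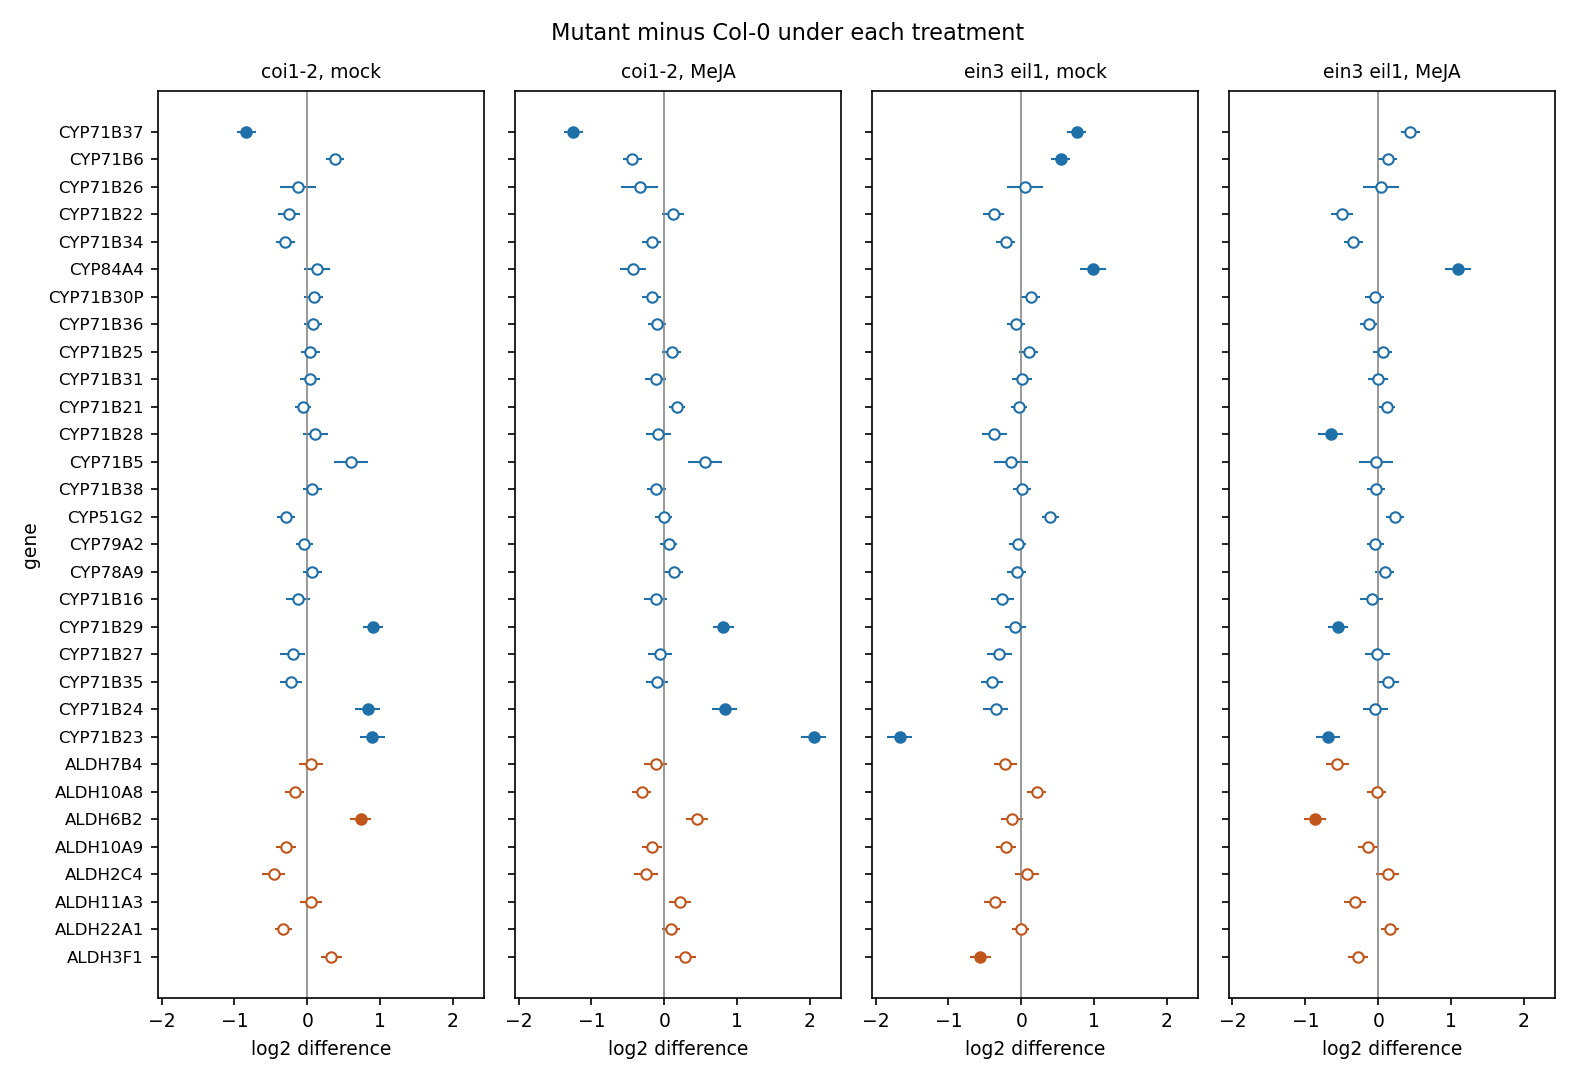
Log2 difference between each mutant and Col-0 under each treatment (x axis) for the 31 genes (y axis), drawn with the same colours, SE bars and filled calls as in the plot of MeJA responses. CYP71B23 lies at 2.05 in coi1-2 under MeJA and at −1.67 in ein3 eil1 under mock, while CYP71B37 lies at −1.25 and 0.76 in the same panels.

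CYP71B23 varied most of the 31 genes, over 3.26 log2 units between the lowest and the highest array. Without MeJA it read 7.00 and 6.48 in Col-0, 7.61 and 7.66 in coi1-2, and 5.18 and 4.97 in ein3 eil1. With MeJA, CYP71B23 read 5.30 and 5.03 in Col-0, 7.11 and 7.32 in coi1-2, and 4.40 and 4.56 in ein3 eil1. All 4 coi1-2 arrays lay above all Col-0 arrays, and the untreated ein3 eil1 arrays overlapped with MeJA-treated Col-0. The Col-0 MeJA group and both ein3 eil1 groups were below the array medians, so the size of differences from them is uncertain.

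With MeJA, CYP71B23 fell by 1.58 on the log2 scale in Col-0 (SE 0.17, 2 arrays in each group), which is 2.99-fold (limma adjusted p = 9.44e-05). In coi1-2 the change was −0.42 ± 0.17 (adjusted p = 0.361) and in ein3 eil1 −0.60 ± 0.17 (adjusted p = 0.0849), neither of which passed. The ein3 eil1 change was called without either Col-0 mock array (0.0444). The responses in coi1-2 and Col-0 differed by 1.16 ± 0.25 (95% interval 0.63 to 1.70, adjusted p = 0.0444), and those in ein3 eil1 and Col-0 by 0.98 ± 0.25 (0.44 to 1.52), which did not pass (adjusted p = 0.073). Neither side of the threshold was secure. The coi1-2 call was lost without any 1 of 9 arrays, at adjusted p-values of 0.0596 to 0.224: Col-0 mock replicate 1, and either replicate of Col-0 MeJA, coi1-2 mock, coi1-2 MeJA and ein3 eil1 mock. The ein3 eil1 difference was called without Col-0 mock replicate 2 (1.24, adjusted p = 0.0375).

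Before treatment CYP71B23 already differed between genotypes in opposite directions. It was higher in coi1-2 than in Col-0 under mock (0.89 ± 0.17, adjusted p = 0.00475), though not called without Col-0 mock replicate 2 (0.0515). In ein3 eil1 it was 3.18-fold lower (−1.67 ± 0.17, adjusted p = 4.87e-05), which is close in size to the fall that MeJA gave in Col-0. These last comparisons share the Col-0 mock arrays. Under MeJA the level in coi1-2 was 4.15-fold that in Col-0 (2.05 ± 0.17, adjusted p = 1.41e-05). This was the widest called difference of any of the 31 genes in the 9 comparisons. The ein3 eil1 level under MeJA was below that of Col-0 (−0.69 ± 0.17, adjusted p = 0.0393), a call lost without any 1 of 10 arrays, every one but the Col-0 mock pair, at adjusted p-values of 0.0525 to 0.256.

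CYP71B37 had nearly the reverse order of groups. On mock arrays it read 4.87 and 4.83 in Col-0, 4.05 and 3.97 in coi1-2, and 5.64 and 5.58 in ein3 eil1. With MeJA, CYP71B37 read 5.80 and 5.58 in Col-0, 4.56 and 4.32 in coi1-2, and 6.09 and 6.18 in ein3 eil1. Each genotype's MeJA arrays lay above its mock arrays, all coi1-2 arrays lay below all others, and ein3 eil1 mock overlapped with Col-0 MeJA. Both coi1-2 groups and Col-0 mock were below the array medians.

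MeJA raised CYP71B37 by 0.84 ± 0.13 in Col-0 (adjusted p = 0.00133), and the change was 0.43 ± 0.13 in coi1-2 (adjusted p = 0.147). In ein3 eil1 it was 0.53 ± 0.13 (adjusted p = 0.0404), lost without any 1 of 8 arrays: either replicate of Col-0 mock, coi1-2 mock, ein3 eil1 mock and ein3 eil1 MeJA (0.0538 to 0.215). The differences of response were −0.41 ± 0.18 in coi1-2 (95% interval −0.81 to −0.01, adjusted p = 0.461) and −0.31 ± 0.18 in ein3 eil1 (−0.71 to 0.09, adjusted p = 0.491). Genotype differences were thus called in level and not in response. CYP71B37 was lower in coi1-2 under mock (−0.84 ± 0.13, adjusted p = 0.00097) and under MeJA (−1.25 ± 0.13, adjusted p = 6.99e-05). It was higher in ein3 eil1 under mock (0.76 ± 0.13, adjusted p = 0.00234). Under MeJA the ein3 eil1 difference of 0.44 ± 0.13 did not pass (adjusted p = 0.0719).

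**Figure D3:**
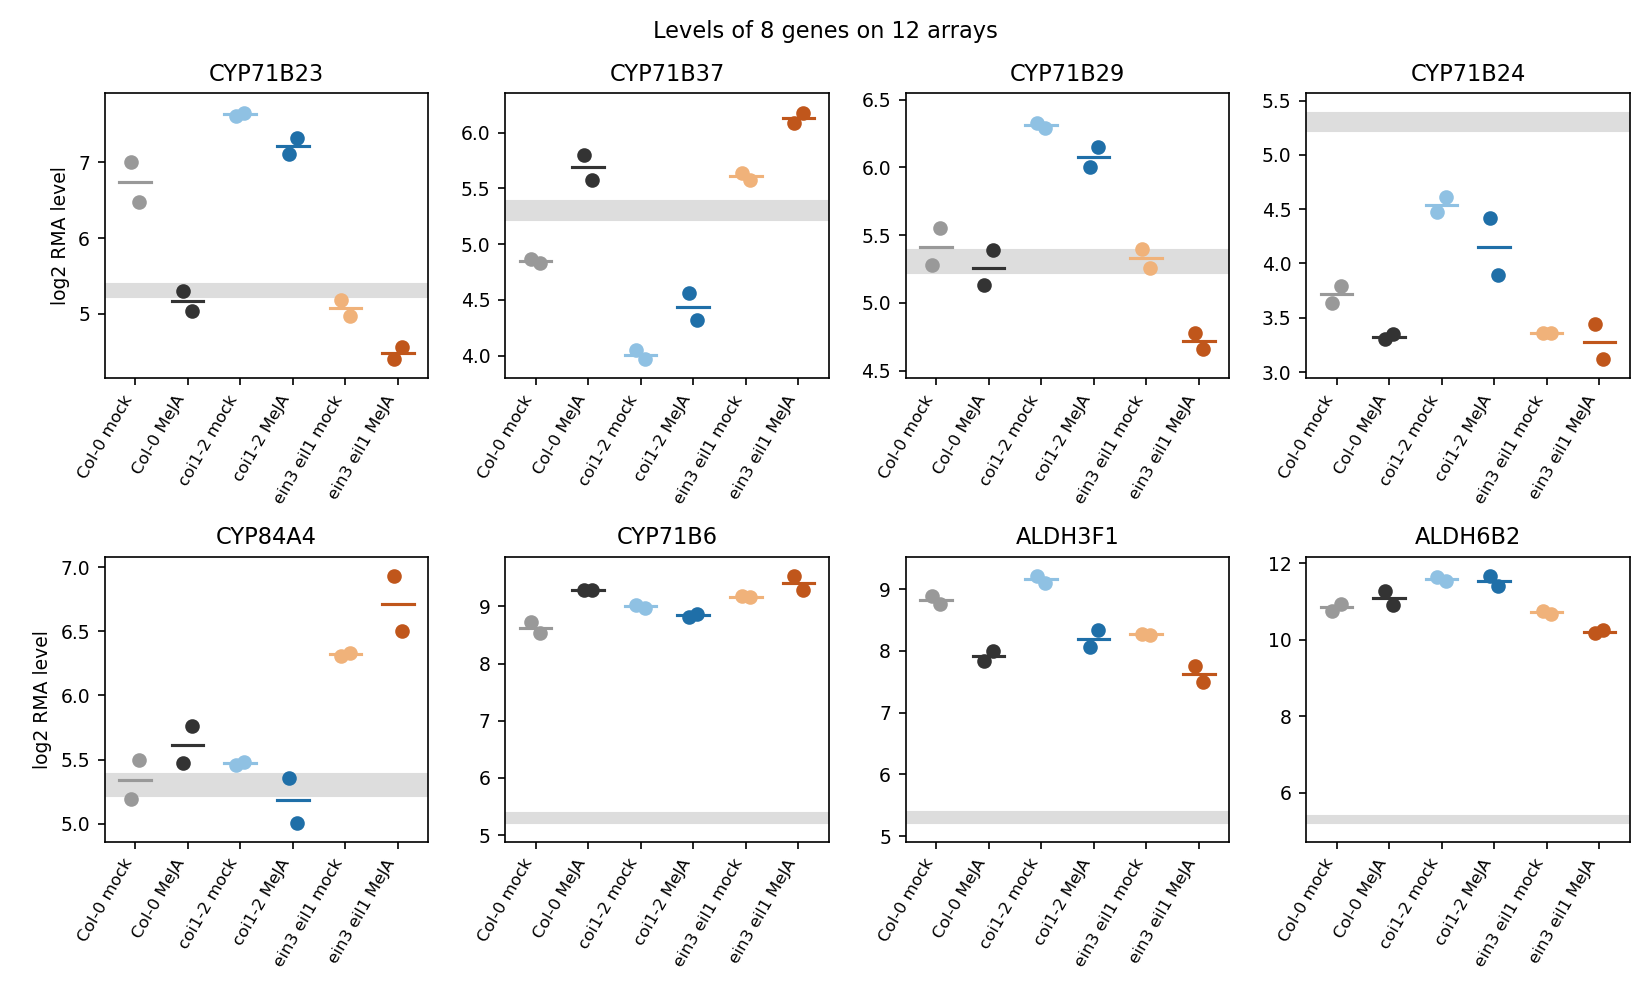
Log2 RMA level (y axis) of 8 genes in the 6 groups (x axis), with a point per array, a line at the mean of 2 arrays and a grey band over the range of the array medians (5.22 to 5.39). The y axes differ between panels. CYP71B23 falls from the coi1-2 groups through Col-0 to ein3 eil1 MeJA, CYP71B37 rises over nearly the same order, and ALDH3F1 is lower under MeJA in every genotype.

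CYP71B23 and CYP71B37 lie in the same stretch of chromosome 3, a run of CYP71B genes with CYP71B23 inside it and CYP71B37 at its end. In the TAIR10.1 gene table, used for names and gene order only, the stretch from CYP71B16 to CYP71B37 holds 24 genes, of which 18 have a P450 symbol and 11 are among the 31 measured here. Tandem copies can be similar in sequence, and signal from one copy on the probes of another was not tested. None of the 31 probe sets carries the _s_at or _x_at suffix that marks probes shared between transcripts. The rule of a single gene symbol leaves out probe sets annotated to several genes, so this absence does not show specific probes.

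Along this run the calls did not share a direction. The median MeJA response of the 11 was 0.04 in Col-0 against −0.03 over all features, with 1 gene called higher and 1 lower, against 4.56% and 3.07% of all features. CYP71B21 and CYP71B22, next to each other and to CYP71B23 with no annotated gene between, had Col-0 responses of −0.04 ± 0.11 (adjusted p = 0.921) and 0.46 ± 0.15 (adjusted p = 0.0909), against −1.58 for CYP71B23. CYP71B34, CYP71B35 and CYP71B36 precede CYP71B37 without a gene between, and had Col-0 responses of 0.32, −0.27 and 0.13, none of them called. CYP71B16, CYP71B21, CYP71B25, CYP71B35 and CYP71B36 lay below the array medians throughout and were called in no comparison. Of these, CYP71B21 ranged from 3.65 to 3.88, CYP71B25 from 3.63 to 3.93 and CYP71B35 from 3.81 to 4.30. CYP71B34 lay above the medians, with group means that no comparison called different. CYP71B26 lay at 6.47 to 7.74 and was called in none, with replicates as far apart as 7.74 and 6.94 in Col-0 MeJA.

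**Figure D4:**
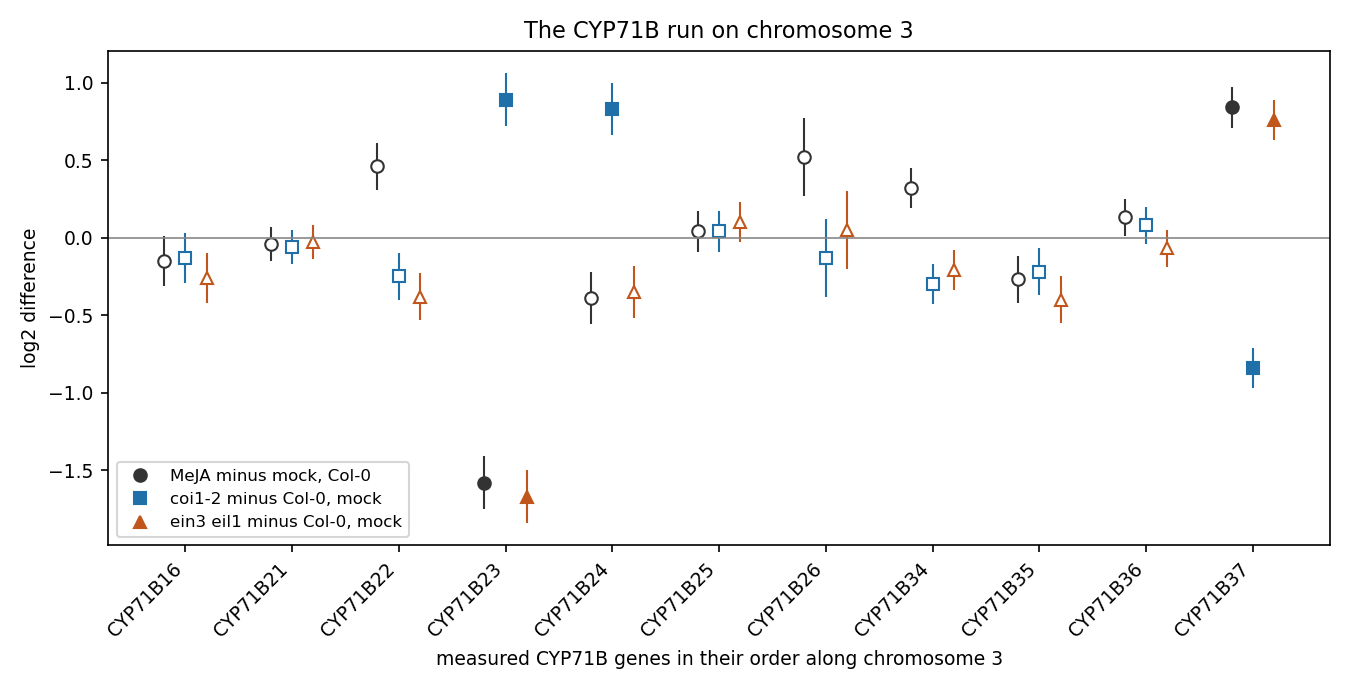
Log2 differences (y axis) of the 11 measured CYP71B genes of the run, ordered along chromosome 3 (x axis, rank and not distance), for MeJA against mock in Col-0 and for each mutant against Col-0 under mock, with SE bars and filled symbols for calls. Only CYP71B23, CYP71B24 and CYP71B37 have filled symbols, and CYP71B23 and CYP71B37 lie on opposite sides of 0 in all 3 comparisons.

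CYP71B24, separated from CYP71B23 by CYP71B3, was higher in coi1-2 like CYP71B23. The mock levels of CYP71B24 were 3.64 and 3.79 in Col-0, 4.47 and 4.61 in coi1-2, and 3.36 and 3.36 in ein3 eil1. Its MeJA levels were 3.30 and 3.35, 4.42 and 3.89, and 3.44 and 3.12 in the same order. All coi1-2 arrays lay above all other arrays, but the 6 groups were all below the array medians and the Col-0 and ein3 eil1 groups below the lower quartiles. The size of differences from these groups is therefore uncertain. The difference between coi1-2 and Col-0 was 0.83 ± 0.17 under mock (adjusted p = 0.00639) and 0.83 ± 0.17 under MeJA (adjusted p = 0.00953). The mock difference did not pass without Col-0 mock replicate 1 (0.0533) or coi1-2 mock replicate 2 (0.0564). The MeJA call was lost without either Col-0 MeJA array (0.0506 and 0.0603) or coi1-2 MeJA replicate 1 (0.129). Its MeJA responses, −0.39 in Col-0, −0.39 in coi1-2 and −0.08 in ein3 eil1, did not pass.

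CYP71B22 went from 4.40 and 4.59 without MeJA to 5.01 and 4.89 with it in Col-0. The coi1-2 arrays went from 4.40 and 4.10 to 5.14 and 5.0, and the ein3 eil1 arrays from 4.03 and 4.20 to 4.57 and 4.33. The MeJA arrays of each genotype lay above its mock arrays, all of them below the array medians. The rise of 0.82 ± 0.15 in coi1-2 (adjusted p = 0.00914) was called with the exceptions given above, and the changes of 0.46 in Col-0 and 0.34 ± 0.15 in ein3 eil1 (adjusted p = 0.282) were not. The responses in coi1-2 and Col-0 differed by 0.36 ± 0.21, which did not pass (adjusted p = 0.633).

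On chromosome 1, CYP71B28 and CYP71B29 are direct neighbours. Mock levels of CYP71B29 were 5.28 and 5.55 in Col-0, 6.33 and 6.29 in coi1-2, and 5.4 and 5.26 in ein3 eil1. After MeJA, CYP71B29 read 5.13 and 5.39 in Col-0, 6.0 and 6.15 in coi1-2, and 4.78 and 4.66 in ein3 eil1. The coi1-2 arrays lay above all others and the ein3 eil1 MeJA arrays below all others. The higher level in coi1-2 was called under mock (0.90 ± 0.14, adjusted p = 0.00103) and under MeJA (0.81 ± 0.14, adjusted p = 0.00329).

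In ein3 eil1, CYP71B29 fell by 0.61 with MeJA on the log2 scale (SE 0.14, adjusted p = 0.0294), a call lost without any 1 of the 4 ein3 eil1 arrays (0.0647 to 0.222). The same gene was lower in ein3 eil1 than in Col-0 under MeJA (−0.55 ± 0.14, adjusted p = 0.0426), a call lost without any 1 of the 10 arrays outside Col-0 mock (0.0553 to 0.27). With the replicate number as a block the adjusted p of this difference was 0.0501. Its neighbour CYP71B28 went from 6.80 and 6.55 to 6.87 and 6.38 with MeJA in Col-0, and from 6.19 and 6.41 to 6.03 and 5.91 in ein3 eil1. The 4 coi1-2 arrays lay between 6.48 and 6.85. CYP71B28 was lower in ein3 eil1 than in Col-0 under MeJA (−0.65 ± 0.17, adjusted p = 0.0405), and this call was lost without any 1 of 9 arrays: Col-0 MeJA replicate 1 and either replicate of coi1-2 mock, coi1-2 MeJA, ein3 eil1 mock and ein3 eil1 MeJA (0.0515 to 0.314). In coi1-2, where CYP71B29 was higher, CYP71B28 differed from Col-0 by 0.11 ± 0.17 under mock (adjusted p = 0.745), so the neighbours were not called together there.

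Of the remaining CYP71B genes, CYP71B5 lies next to CYP71B30P elsewhere on chromosome 3 and read 6.29 and 6.68 in untreated Col-0, and 6.85 and 7.32 in untreated coi1-2. The difference of 0.60 ± 0.23 did not pass (adjusted p = 0.11), with replicates up to 0.62 apart in ein3 eil1 MeJA (6.09 and 6.71). CYP71B38 stayed between 3.53 and 3.96 on all arrays and was called in no comparison.

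CYP71B6 acts in indole metabolism, where it converts indole-3-acetonitrile towards indole-3-carboxylic acid. Its level went from 8.72 and 8.53 without MeJA to 9.28 and 9.28 with it in Col-0. The coi1-2 arrays went from 9.02 and 8.98 to 8.82 and 8.87, and the ein3 eil1 arrays from 9.18 and 9.16 to 9.53 and 9.28. The Col-0 mock arrays were the lowest of the 12, MeJA arrays lay above mock arrays in Col-0 and ein3 eil1, and below them in coi1-2. The rise in Col-0 was 0.65 ± 0.13 (adjusted p = 0.00618), and did not pass without Col-0 mock replicate 2 (0.0649).

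In coi1-2 the change of CYP71B6 was −0.16 ± 0.13 (adjusted p = 0.756) and in ein3 eil1 0.24 ± 0.13 (adjusted p = 0.392). The responses in coi1-2 and Col-0 differed by −0.81 ± 0.18 (95% interval −1.20 to −0.42), just outside the threshold (adjusted p = 0.0512), and by −0.81 with adjusted p = 0.0299 without either ein3 eil1 MeJA array. Under mock CYP71B6 was higher in ein3 eil1 than in Col-0 (0.54 ± 0.13, adjusted p = 0.0163), which did not pass without Col-0 mock replicate 2 (0.11) or either ein3 eil1 mock array (0.0942 and 0.0933), or with arrays centred on their medians (0.42, adjusted p = 0.0834). The coi1-2 difference under mock, 0.38 ± 0.13, did not pass (adjusted p = 0.0712), and was called without either ein3 eil1 MeJA array (0.0492). That under MeJA, −0.44 ± 0.13, did not pass either (adjusted p = 0.0589), and was called without the same arrays (0.0382).

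CYP84A4, which takes part in the synthesis of arabidopyrones from phenylpropanoid precursors, was called between genotypes and not between treatments. Without MeJA it read 5.19 and 5.50 in Col-0, 5.46 and 5.48 in coi1-2, and 6.31 and 6.33 in ein3 eil1. With MeJA, CYP84A4 read 5.47 and 5.76 in Col-0, 5.36 and 5.01 in coi1-2, and 6.93 and 6.50 in ein3 eil1. All 4 ein3 eil1 arrays lay above the 8 others. The difference from Col-0 was 0.98 ± 0.18 under mock (1.97-fold, adjusted p = 0.00348) and 1.10 ± 0.18 under MeJA (2.14-fold, adjusted p = 0.00294). Both calls held in all 19 alternatives run, though each passed only just under the threshold in at least 1 of them. Its MeJA responses were 0.28 in Col-0, −0.28 in coi1-2 and 0.39 in ein3 eil1, each ± 0.18, and none was called.

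CYP78A9, a regulator of organ growth in the same subfamily as KLU, ranged only from 3.85 to 4.17. CYP51G2, a relative of the sterol demethylase gene, ranged from 3.99 to 4.85 with its highest values, 4.85 and 4.69, in ein3 eil1 mock. The difference of CYP51G2 from Col-0 there was 0.40 ± 0.12 and did not pass (adjusted p = 0.0581).

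Among the aldehyde dehydrogenase genes, ALDH3F1 was lowered by MeJA in every genotype. It encodes a class 3 enzyme, a group that acts on aldehydes from lipid oxidation. In Col-0 its level went from 8.89 and 8.76 without MeJA to 7.83 and 8.0 with it. In coi1-2 it went from 9.21 and 9.10 to 8.06 and 8.33, and in ein3 eil1 from 8.28 and 8.26 to 7.76 and 7.49. Mock and MeJA arrays did not overlap in any genotype, and all 12 arrays lay well above the array medians.

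The fall of ALDH3F1 was −0.92 ± 0.14 in Col-0 (1.89-fold, adjusted p = 0.00129) and −0.95 ± 0.14 in coi1-2 (1.94-fold, adjusted p = 0.00234). In ein3 eil1 it was −0.64 ± 0.14 (adjusted p = 0.0229), lost without ein3 eil1 mock replicate 1 (0.153), mock replicate 2 (0.119) or MeJA replicate 2 (0.0937). The responses in coi1-2 and Col-0 differed by −0.04 ± 0.20, with a 95% interval from −0.47 to 0.40 (adjusted p = 0.985). Those in ein3 eil1 and Col-0 differed by 0.28 ± 0.20 (−0.16 to 0.71, adjusted p = 0.593). Before treatment ALDH3F1 was lower in ein3 eil1 than in Col-0 (−0.56 ± 0.14, adjusted p = 0.0258), a call lost without any 1 of the 4 arrays compared (0.0599 to 0.162).

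ALDH6B2 encodes the mitochondrial methylmalonate semialdehyde dehydrogenase of valine breakdown. Mock arrays read 10.75 and 10.94 in Col-0, 11.64 and 11.52 in coi1-2, and 10.74 and 10.68 in ein3 eil1. With MeJA, ALDH6B2 read 11.26 and 10.90 in Col-0, 11.66 and 11.41 in coi1-2, and 10.16 and 10.25 in ein3 eil1. The coi1-2 arrays were the highest and the ein3 eil1 arrays the lowest of the 12. ALDH6B2 was higher in coi1-2 than in Col-0 under mock (0.73 ± 0.15, adjusted p = 0.00616), lost without Col-0 mock replicate 1 (0.0565), while the difference of 0.45 ± 0.15 under MeJA did not pass (adjusted p = 0.0988) and was called without Col-0 MeJA replicate 1 (0.64, adjusted p = 0.0442). It was lower in ein3 eil1 than in Col-0 under MeJA (−0.87 ± 0.15, adjusted p = 0.00405), lost without Col-0 MeJA replicate 1 (0.0538). The MeJA responses, 0.23 in Col-0, −0.04 in coi1-2 and −0.51 in ein3 eil1, did not pass, and the responses in ein3 eil1 and Col-0 differed by −0.74 ± 0.21 without passing (adjusted p = 0.119). With limma's trended and robust eBayes, the ein3 eil1 response (0.0274), its difference from the Col-0 response (0.0356) and the coi1-2 difference under MeJA (0.0346) were called.

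ALDH7B4, a stress-induced enzyme of the antiquitin family, went from 11.67 and 11.48 without MeJA to 12.14 and 11.83 with it in Col-0. The coi1-2 arrays went from 11.73 and 11.51 to 12.03 and 11.69, and the ein3 eil1 arrays from 11.35 and 11.35 to 11.48 and 11.37. Mock and MeJA arrays overlapped in coi1-2 alone. The change in Col-0 was 0.41 ± 0.16 and did not pass (adjusted p = 0.159), and neither did the lower level in ein3 eil1 under MeJA (−0.56 ± 0.16, adjusted p = 0.0616). The latter was called with a filter at the 50th percentile of mean level (0.0478), with trended and robust eBayes (0.0123) and with the replicate number as a block (0.0272).

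The other aldehyde dehydrogenase genes were called in none of the 9 comparisons, although ALDH2C4 and ALDH22A1 each passed in coi1-2 against Col-0 under mock with 1 alternative. ALDH2C4 (REF1), which oxidises coniferaldehyde and sinapaldehyde to ferulic and sinapic acid, ranged from 9.23 to 10.07. Untreated coi1-2 read 9.55 and 9.23 against 9.85 and 9.85 in untreated Col-0, a difference of −0.46 ± 0.16 (adjusted p = 0.0755, and 0.042 with limma's trended and robust eBayes). ALDH11A3, the non-phosphorylating glyceraldehyde-3-phosphate dehydrogenase, ranged from 9.27 to 10.09. The aminoaldehyde dehydrogenase genes ALDH10A8 and ALDH10A9, whose enzymes act on betaine aldehyde and related compounds, ranged from 9.51 to 10.10 and from 8.87 to 9.30. ALDH22A1 ranged from 6.58 to 7.04, and its difference between coi1-2 and Col-0 under mock was −0.33 ± 0.12 (adjusted p = 0.0984), and −0.38 after a second quantile normalization (0.0497).

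Aldehydes are also removed by reduction, and 3 of 8 listed genes for such enzymes were measured. AT3G04000, a gene for a chloroplast aldehyde reductase, read 8.27 and 8.0 in untreated Col-0, and 10.24 and 9.90 after MeJA. AT3G04000 rose with MeJA by 1.93 ± 0.15 in Col-0 (adjusted p = 7.25e-06), by 1.64 ± 0.15 in coi1-2 (adjusted p = 0.000101) and by 1.16 ± 0.15 in ein3 eil1 (adjusted p = 0.00107). AER, which encodes a 2-alkenal reductase, rose by 1.28 ± 0.16 in Col-0 (adjusted p = 0.000269) and by 0.89 ± 0.16 in coi1-2 (adjusted p = 0.0094), while its difference in ein3 eil1 was 0.11 ± 0.16 (adjusted p = 0.829). The AER responses in ein3 eil1 and Col-0 differed by −1.17 ± 0.23 (adjusted p = 0.0237). Calls for AER and AT3G04000 were not checked under the alternatives or with single arrays left out. Without MeJA, AER was already higher than in Col-0 in ein3 eil1 (0.79 ± 0.16, adjusted p = 0.00767) and in coi1-2 (0.88 ± 0.16, adjusted p = 0.00306). Under MeJA AER differed from Col-0 by −0.39 ± 0.16 in ein3 eil1 (adjusted p = 0.23) and 0.49 ± 0.16 in coi1-2 (adjusted p = 0.0981), neither called. The mock level of AT3G04000 was higher than in Col-0 in ein3 eil1 (0.85 ± 0.15, adjusted p = 0.00313), but not called in coi1-2 (0.07 ± 0.15, adjusted p = 0.835). AT1G54870 stayed between 3.35 and 3.73, below the lower quartiles. The P450 reductases and cytochrome b5 genes that supply P450s with electrons had no named probe set among 7 listed and were not analysed here.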

How the data were processed

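Log2 expression values of 22810 probe sets on 12 ATH1 arrays were deposited, made by the authors with Affymetrix Expression Console, RMA and Partek per the submitters' processing notes, which give no versions or order. RMA sets arrays to nearly the same distribution, so a shift common to most transcripts stays unseen. No genome build is named in the labels or the file. The 64 control probe sets were left out and probe sets of the same gene averaged, which gave 22588 features, 13355 of them named through the platform annotation and the TAIR10.1 gene table. Fits used limma 3.58.1 in R 4.3.3 on 6 group means over 12 arrays (6 residual and 6.24 prior degrees of freedom). Adjustment (Benjamini-Hochberg) covered every feature, and the threshold was 0.05. Simulated data with added differences of known size served to check the code of the fit, and do not bear on the calls reported here. Python 3.11.15, pandas 2.3.3 and matplotlib 3.10.9 drew the figures. Alternatives were a second quantile normalization, centring arrays on their medians, a filter at the 50th percentile of mean level, limma's trended and robust eBayes, a fit of the arrays compared only, the replicate number as a block, the brightest probe set of a gene, and leaving out each array. These alternatives were read for the 31 genes only, and not for EXPA7 or the genes of aldehyde-reducing enzymes. All 31 genes could be named, and those called are given with their values. The genes and lists were chosen with earlier results of these data known. Of 70 P450 symbols listed by role, 0 were among the 31 genes. No sequences were used.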

Additional observations from a re-analysis of the deposited data

Results flagged for a closer look

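The response of CYP71B23 to MeJA differed between coi1-2 and Col-0 by 1.16 on the log2 scale (SE 0.25, limma adjusted p = 0.0444 for the interaction of genotype with MeJA). It was the only 1 of the 31 genes whose response was called as different between genotypes. Both MeJA arrays of each genotype lay on the lower side of its mock arrays, at −1.58 in Col-0 and −0.42 in coi1-2 on average. Adjusted p-values over the 19 alternatives ran from 0.0216 to 0.224, and 10 of them did not pass. Outlying arrays could not be looked for in groups of 2.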

How the results depend on the processing

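Of 29 called differences of single genes, 13 passed in every alternative run and 16 were lost in at least 1, while 0 changed direction. Those that always passed were the Col-0 responses of CYP71B23, CYP71B37 and ALDH3F1, the coi1-2 response of ALDH3F1, CYP71B29 and CYP71B37 in coi1-2 under both treatments, CYP71B23 in coi1-2 under MeJA and in ein3 eil1 under mock, CYP71B37 in ein3 eil1 under mock, and CYP84A4 in ein3 eil1 under both treatments. Of these, ALDH3F1 in coi1-2, CYP71B29 in coi1-2 under MeJA and CYP84A4 passed only just under the threshold in at least 1 alternative. Among the genes called in the main fit, the filter at the 50th percentile of mean level left out CYP71B24, CYP71B22 and CYP71B37. It also left out the uncalled P450 genes that lay below the array medians in all groups. None of these genes was tested under it or could be called, so its counts cover only part of the genes. With that filter the count of called genes was 1 for the coi1-2 response (from 2), 2 for the coi1-2 interaction (from 1, with CYP71B6 added) and 3 for coi1-2 under mock (from 5). With arrays centred on their medians it was 1 for the ein3 eil1 response (from 3) and 1 for the ein3 eil1 interaction (from 0, CYP71B23). Centring moved the median of all features to 0.102 in the former, 0.15 in the latter and −0.153 in ein3 eil1 under mock. With eBayes trend and robust it was 2 for the coi1-2 interaction and 1 for that of ein3 eil1 (ALDH6B2). With only the arrays compared it was 0 for the ein3 eil1 response, 0 for the coi1-2 interaction and 1 for ein3 eil1 under MeJA (from 5). Besides single arrays, other alternatives ended 9 of the calls. Centring did so for CYP71B29 (0.0845) and ALDH3F1 (0.0797) in the ein3 eil1 response, CYP71B6 under mock (0.0834) and CYP71B29 under MeJA (0.0573) in ein3 eil1. Quantile normalization did so for the ein3 eil1 response of CYP71B29 (0.0576) and for CYP71B28 in ein3 eil1 under MeJA (0.0531). Trend and robust did so for CYP71B29 (0.0665) and CYP71B37 (0.105) in the ein3 eil1 response, and for CYP71B28 (0.0505) and CYP71B29 (0.0935) in ein3 eil1 under MeJA. The fit of only the arrays compared did so for all 3 ein3 eil1 responses (0.0979 to 0.131), the coi1-2 interaction of CYP71B23 (0.0527), and CYP71B23, CYP71B28, CYP71B29 and ALDH6B2 in ein3 eil1 under MeJA (0.063 to 0.192). Fewer residual degrees of freedom go with that fit and with each array left out.

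Leaving out each array gave 3 to 4 called genes for the Col-0 response, 1 to 2 for coi1-2, 0 to 3 for ein3 eil1, 0 to 2 for the coi1-2 interaction and 0 to 1 for that of ein3 eil1. It gave 3 to 6 for coi1-2 and 3 to 5 for ein3 eil1 under mock, and 3 to 5 and 1 to 5 under MeJA.

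The labels do not say what the replicate number marks. Over the 15 pairs of groups, differences between replicates correlated at −0.22 to 0.23, with 4 pairs above 0.1. Whether the number pairs the arrays cannot be told from these weak correlations. With the replicate block the counts of called genes were 4, 2 and 3 for the responses of Col-0, coi1-2 and ein3 eil1, 1 and 0 for the interactions, 5 and 5 under mock, and 4 and 5 under MeJA, all equal to those without it. In ein3 eil1 under MeJA the block dropped CYP71B29 (0.0501) and added ALDH7B4 (0.0272). Low signal limits the 14 P450 genes below the array medians in all groups.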
